A study of Mus musculus with 6 samples.

Results

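The genes examined here mark B lymphocytes and the antibody-secreting plasma cells that arise from them: Ms4a1, Cd79a, Cd79b, Pax5, Cr2, Jchain, Mzb1, Xbp1 and Tnfrsf17. These 9 genes were taken by symbol from the 55487 genes of a table of RNA-seq read counts, and each symbol matched 1 gene. The table covers 6 subcutaneous tumors grown from CT26.WT, a colon carcinoma line of BALB/c mice, with 3 tumors in the control group and 3 in the IFN-γ group. All hosts were immunocompetent male BALB/c mice bought at 4 weeks of age. CT26.WT cells, labelled wild-type in both groups, had been injected under the skin of the back. In the IFN-γ group, IFN-γ was given into the tail vein at intervals of 48 h, and the control group was given PBS by that route. Tumors were monitored until they reached a set size, and the day of collection was not used here. No cell sorting is described, and in such bulk samples fewer cells of a type and less RNA per cell cannot be told apart. The comparison asks how the tumors of IFN-γ-stimulated mice differ from control tumors.

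B cells recognise antigen through a membrane immunoglobulin that signals through the CD79A and CD79B chains, and PAX5 is the transcription factor that keeps them committed to the B lineage. MS4A1, better known as CD20, lies on the B cell surface, and CR2, also called CD21, is a complement receptor of mature B cells and of follicular dendritic cells. When a B cell becomes a plasma cell, PAX5 and MS4A1 are switched off, XBP1 enlarges the secretory pathway, and TNFRSF17 (BCMA) receives survival signals. JCHAIN joins the units of secreted IgM and IgA, and MZB1 assists antibody assembly in the endoplasmic reticulum. In tumors, B cells and plasma cells are often a minor part of the infiltrate, and XBP1 acts in nearly every secreting or stressed cell, cancer cells included.

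The promoters of 3 genes are printed because they represent the contrast among the members. Among the 7 members tested, Pax5 and Ms4a1 had the log2 fold changes farthest from 0, Cd79a is a textbook target of PAX5, and Xbp1 was abundant and nearly equal in the groups. RefSeq's promoter table (build GRCm38.p6) held 6 of the 9 members, namely Cr2, Pax5, Jchain, Cd79a, Xbp1 and Tnfrsf17. Each window runs from 250 bases before to 50 bases after the RefSeq start, 5′ to 3′ in the direction of the gene. Capitals mark the match to the PU.1 core, GAGGAA. RefSeq starts can differ from the gene positions given below, which are from GENCODE M21. The Pax5 window lies wholly upstream of the GENCODE gene, whose first base on the minus strand is 44710487.
Pax5, chr4:44710645-44710944, minus strand: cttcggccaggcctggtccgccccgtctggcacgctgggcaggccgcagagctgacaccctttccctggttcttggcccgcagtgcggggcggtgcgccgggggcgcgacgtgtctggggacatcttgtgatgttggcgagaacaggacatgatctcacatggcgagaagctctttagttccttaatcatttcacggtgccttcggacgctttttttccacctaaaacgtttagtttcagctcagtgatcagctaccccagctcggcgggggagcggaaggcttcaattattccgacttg
Cd79a, chr7:24897247-24897546, plus strand: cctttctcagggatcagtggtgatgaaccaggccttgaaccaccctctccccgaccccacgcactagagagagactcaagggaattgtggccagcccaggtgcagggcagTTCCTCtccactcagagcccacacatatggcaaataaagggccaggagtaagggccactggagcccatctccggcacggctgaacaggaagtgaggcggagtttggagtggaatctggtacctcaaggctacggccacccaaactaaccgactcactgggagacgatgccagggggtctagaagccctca
Xbp1, chr11:5520391-5520690, plus strand: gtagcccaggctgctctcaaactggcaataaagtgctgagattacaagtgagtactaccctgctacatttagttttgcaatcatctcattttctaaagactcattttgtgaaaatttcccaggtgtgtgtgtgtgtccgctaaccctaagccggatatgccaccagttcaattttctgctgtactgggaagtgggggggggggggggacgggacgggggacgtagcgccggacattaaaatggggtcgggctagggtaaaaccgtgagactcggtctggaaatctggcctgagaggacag

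Motifs were searched on both strands of the 6 windows. GAGGAA was found in 2 windows, those of Cd79a and Tnfrsf17, and in 28.3% of all 32851 promoters of that length. The core bound by early B cell factor (CCCNNGGG) is in 13.7% of all promoters and in 0 of the 6. The octamer ATGCAAAT is in 1.74% of all promoters, the XBP1 and ATF6 core TGACGTGG in 0.676% and CCAAT in 37.4%, and none of these was in the 6 windows. The 2 matches were on the strand opposite to the gene, where they read TTCCTC in the window, and letters alone say nothing about where a factor binds. The Pax5 window held 23 CpG dinucleotides and the Jchain window 3, against a median of 7 over all promoters.

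Libraries held 15759300 to 17559680 counts, so 3 counts, the upper limit that a count of 0 allows, corresponded to 0.169 to 0.187 CPM (counts per 1000000 of the TMM-scaled library total). These limits cover counting error only. The members together drew 12885 counts, of which Xbp1 supplied 87.5%. IFN-γ tumor 3 stood apart from the other IFN-γ tumors in its immune genes. Summed pan-leukocyte genes came to 556 CPM there, while IFN-γ tumor 1 had 977, IFN-γ tumor 2 had 1010 and the controls had 572 to 694 CPM. The log2 fold change of each member tested is therefore also given without this tumor. Leaving it out raises the IFN-γ mean of the pan-leukocyte sum by construction. A leukocyte gene that passes without this tumor is thus no separate evidence of a higher level.

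Of the 9 members, 7 had enough reads for the test across all genes, and Cr2 and Mzb1 did not. None of the 7 passed the adjusted threshold of 0.05 in either direction under edgeR's quasi-likelihood test, whereas 0.0794% of the 15114 genes tested passed as higher in the IFN-γ group and 0.0331% as lower. By sign, 6 members had a log2 fold change below 0 and Cd79b was above 0. The median over the 7 was -0.75, against 0.0015 over all genes tested. An unadjusted p under 0.05 was reached by 3 members, Pax5, Ms4a1 and Tnfrsf17, all with lower values in the IFN-γ group, where 4.44% of all genes tested did so in that direction. Members that passed the filter on low counts through a high control group had more room to be lower, so these counts describe the 7 genes and are no test of the list.

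Ms4a1, the gene of CD20 (ENSMUSG00000024673, chr19:11249675-11266241, minus strand, GRCm38), was read 11, 40 and 26 times in control tumors 1, 2 and 3. IFN-γ tumors 1, 2 and 3 gave 4, 12 and 3 reads. As levels, control tumors were at 0.687, 2.25 and 1.48 CPM and IFN-γ tumors at 0.232, 0.732 and 0.185 CPM. Control tumor 2 was the highest, and only IFN-γ tumor 2 reached into the control range, just above control tumor 1. The mean was 1.47 ± 0.783 CPM (SD, n = 3) against 0.383 ± 0.303 CPM (SD, n = 3). edgeR gave a log2 fold change of -1.94 with a standard error of 0.61 (adjusted p = 0.361), which corresponds to a 3.83-fold lower level that did not pass the threshold. It was -1.63 without IFN-γ tumor 3 (adjusted p = 0.258, edgeR) and -1.50 without control tumor 2, and it reached -2.78 without IFN-γ tumor 2 (adjusted p = 0.563, edgeR).

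Pax5, the gene of the B lineage factor (ENSMUSG00000014030, chr4:44524757-44710487, minus strand), was at 2.37, 3.15 and 1.94 CPM in control tumors 1, 2 and 3, from 38, 56 and 34 counts. In IFN-γ tumors 1, 2 and 3 it was at 0.348, 1.34 and 0.247 CPM, from 6, 22 and 4 counts. Every IFN-γ tumor was below every control tumor, and IFN-γ tumor 2 lay well above the remainder of its group, as it did for Ms4a1. Groups that did not overlap in this direction were found for 7.5% of all genes tested, and among the members for Pax5 and Tnfrsf17. Its estimate was -1.94 on the log2 scale, with a standard error of 0.56 and an adjusted p of 0.315 from edgeR. It was -1.57 without IFN-γ tumor 3 (adjusted p = 0.169, edgeR) and -3.03 without IFN-γ tumor 2 (adjusted p = 0.217, edgeR). With no filter on low counts the adjusted p was 0.0506, the lowest over the 13 alternatives for this gene, and it was 1 in the test against a log2 fold change of 1 and at most 0.666 in the others. In GENCODE M21, 8.6% of the exonic bases of Pax5 lie under exons of genes on the opposite strand, 5730488B01Rik and Gm12462. The part of these reads in the result was not tested.

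The genes of the B cell receptor's signalling chains lay on opposite sides of 0, and neither passed. Cd79a (ENSMUSG00000003379, chr7:24897381-24902197, plus strand) was at 0.687, 2.2 and 1.2 CPM in control tumors 1, 2 and 3. For IFN-γ tumors 1, 2 and 3 it was at 0.29, 0.976 and 1.17 CPM. The groups overlapped, since control tumor 1 lay below IFN-γ tumors 2 and 3. The estimate was a log2 fold change of -0.75 with a standard error of 0.57 (edgeR, adjusted p = 0.717), and -0.22 without control tumor 2, which held 39 of its 111 counts. Without IFN-γ tumor 3 it was -1.12.

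Cd79b (ENSMUSG00000040592, chr11:106311341-106314762, minus strand) was read 65, 65 and 69 times in control tumors and 97, 76 and 79 times in IFN-γ tumors. In CPM the groups were at 3.89 ± 0.205 CPM (SD, n = 3) against 5.05 ± 0.514 CPM (SD, n = 3). It was the only member whose IFN-γ tumors all lay above the controls, as 7.63% of all genes tested did. From lowest to highest, the control tumors spanned 1.11-fold for Cd79b and 3.2-fold for Cd79a, and control tumor 2, the highest for Cd79a, was the lowest for Cd79b. With a standard error of 0.19, the log2 fold change came to 0.38 (edgeR, adjusted p = 0.547). It was 0.39 without IFN-γ tumor 3, and between 0.29 and 0.43 when each tumor was left out in turn.

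Cr2, the gene of the complement receptor CD21 (ENSMUSG00000026616, chr1:195136811-195176716, minus strand), was counted 0, 13 and 3 times in control tumors 1, 2 and 3 and 1, 1 and 0 times in the IFN-γ tumors. Of its 18 counts, 13 came from control tumor 2, and every other tumor was at or below the 3 counts that 0 would allow. The mean was 0.301 ± 0.383 CPM (SD, n = 3) in the controls and 0.0397 ± 0.0344 CPM (SD, n = 3) in the IFN-γ group (two-sided exact permutation test, p = 0.4, where 3 tumors against 3 cannot go below 0.1). No difference in Cr2 was detected with these low counts, this spread among the controls and 3 tumors in each group.

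**Figure D1:**
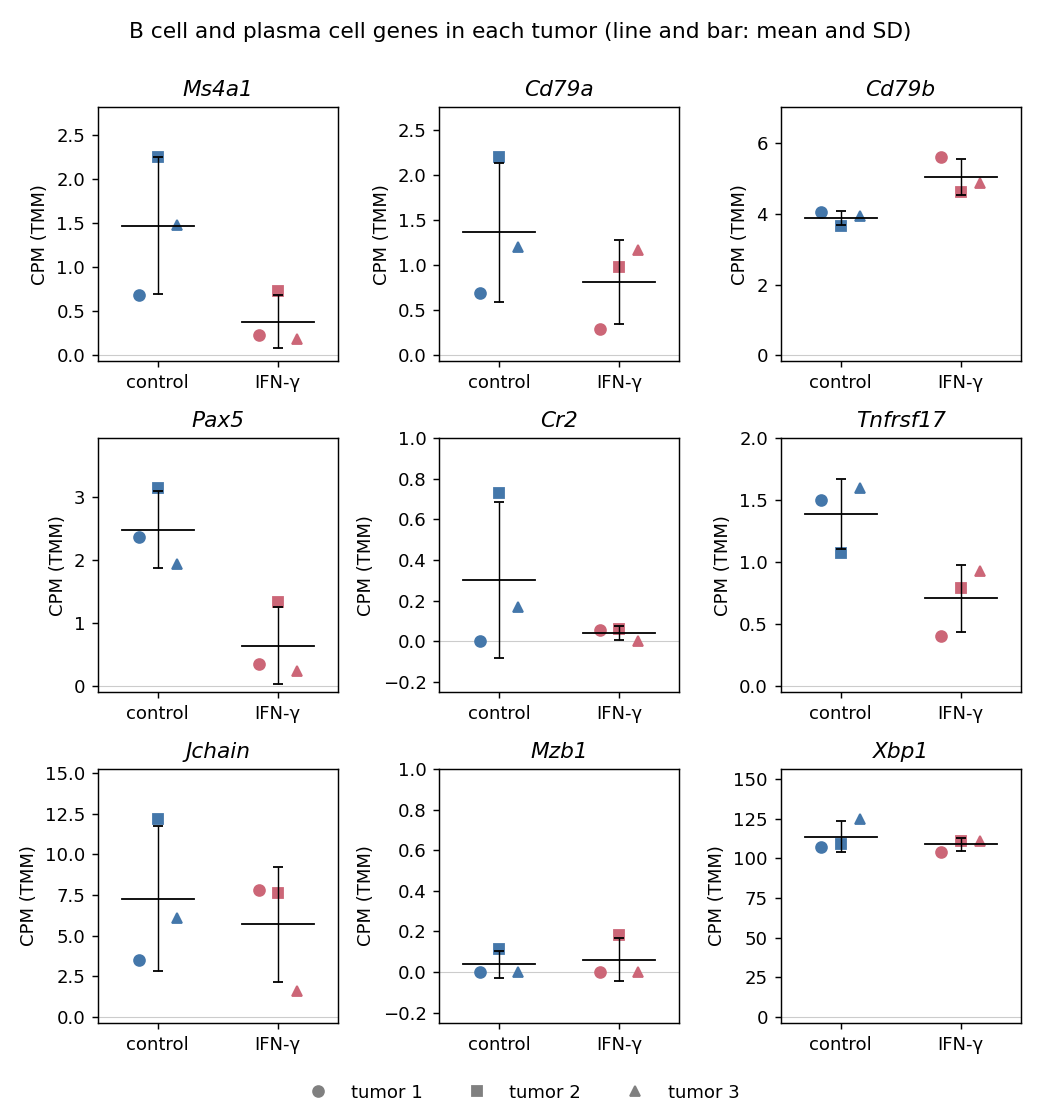
Level of each of the 9 genes in CPM (TMM-scaled; y axis, linear, a scale of its own in each panel) in the control and IFN-γ tumors. Points are single tumors, horizontal lines means and bars SDs (n = 3). Pax5 and Tnfrsf17 are lower and Cd79b is higher in every IFN-γ tumor than in every control tumor, and Xbp1 stays between 104 and 125 CPM.

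Tnfrsf17, the gene of the plasma cell survival receptor BCMA (ENSMUSG00000022496, chr16:11313812-11320074, plus strand), drew 24, 19 and 28 reads from control tumors 1, 2 and 3 and 7, 13 and 15 from IFN-γ tumors 1, 2 and 3. Its levels in CPM were 1.5, 1.07 and 1.6 against 0.406, 0.793 and 0.926. The groups did not overlap, and control tumor 2, the highest for 5 of the 9 members, was the lowest control here. At a log2 fold change of -0.97 with a standard error of 0.39, the adjusted p was 0.445 (edgeR). Leaving out IFN-γ tumor 1 gave -0.69 and leaving out IFN-γ tumor 3 gave -1.22, the ends of the range.

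Jchain, the gene of the joining chain (ENSMUSG00000067149, chr5:88519809-88527891, minus strand), varied within the groups more than between them. Control tumors 1, 2 and 3 were at 3.5, 12.2 and 6.11 CPM. For IFN-γ tumors 1, 2 and 3 the levels were 7.83, 7.63 and 1.61 CPM. The highest control tumor was 3.49 times the lowest, and the highest IFN-γ tumor was 4.87 times the lowest, which was IFN-γ tumor 3. An estimate of -0.36 on the log2 scale (standard error 0.59, adjusted p = 0.884, edgeR) changed sign to 0.24 without control tumor 2 and to 0.072 without IFN-γ tumor 3.

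Mzb1 (ENSMUSG00000024353) was all but unread, with 2 counts in control tumor 2, 3 in IFN-γ tumor 2 and 0 in the other 4 tumors. Its mean was 0.0375 ± 0.065 CPM against 0.061 ± 0.106 CPM (SD, n = 3 in each group, two-sided exact permutation test, p = 1). In GENCODE M21, 57.2% of the exonic bases of Mzb1 are shared with SPATA24 on the same strand. How reads on shared bases were counted is not given in the sources used here, and the part this played in the low count was not tested.

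Xbp1, the transcription factor of the secretory pathway (ENSMUSG00000020484, chr11:5520659-5525893, plus strand), had 1719 to 2193 counts in a tumor. Control tumors 1, 2 and 3 were at 107, 109 and 125 CPM, and the levels for IFN-γ were 104, 111 and 111 CPM. Its mean was 114 ± 9.76 CPM in the controls (SD, n = 3) and 109 ± 3.82 CPM in the IFN-γ group (SD, n = 3). The groups overlapped, with control tumor 3 the highest. On the log2 scale the difference was -0.067 with a standard error of 0.08 (edgeR, adjusted p = 0.835). It was -0.088 without IFN-γ tumor 3 and lay between -0.11 and -0.0011 when each tumor was left out in turn. Gene counts do not separate the spliced, active form of the Xbp1 transcript from the unspliced one.

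**Figure D2:**
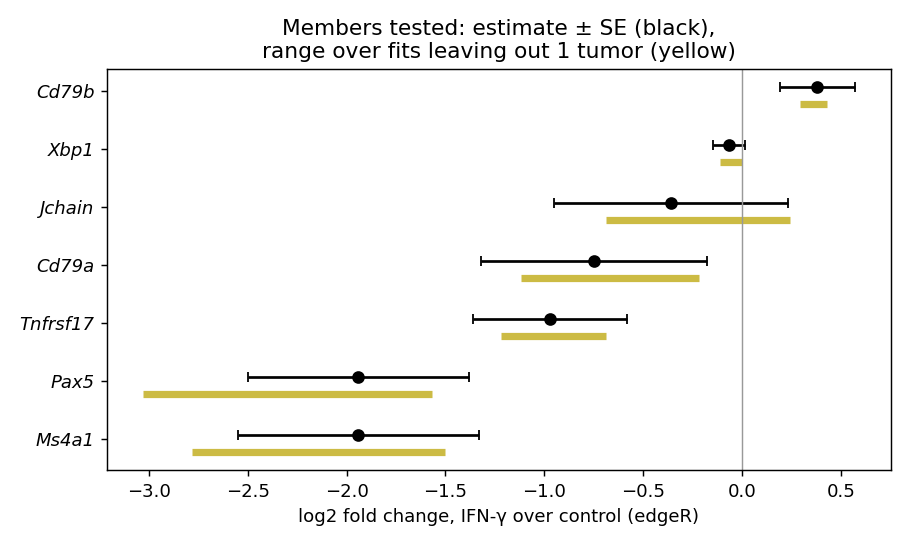
Log2 fold change of the 7 members tested, IFN-γ over control (x axis), with 1 gene per line. Black points and bars are the edgeR estimate and its standard error with all 6 tumors, and yellow bars the range when single tumors were left out. The range of Jchain crosses 0, and Pax5 and Ms4a1 reach from -3.03 to -1.50 without doing so.

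Compared per length (RPKM from the union of annotated exons), the control tumors put Xbp1 first by far, at a mean level of 35.1 RPKM. Jchain and Cd79b followed at mean levels of 2.89 and 2.72 RPKM, and did not differ beyond their spread, since Jchain ran from 1.39 to 4.85. Tnfrsf17 at 1.7 and Cd79a at 0.934 RPKM overlapped as well, at 1.31 to 1.96 and 0.471 to 1.51. Pax5 and Ms4a1 came next at levels of 0.281 and 0.238 RPKM, again with overlapping ranges, and Cr2 and Mzb1 last at 0.0371 and 0.0309 RPKM. In the IFN-γ group, the mean levels were 33.5 RPKM for Xbp1, 3.53 for Cd79b and 2.26 for Jchain. Cd79b, at 3.24 to 3.93 RPKM there, no longer overlapped the range of Jchain, at 0.638 to 3.11 RPKM. Cd79a and Cd79b encode partners of the same complex, yet the mean level of Cd79b was above that of Cd79a in both groups, with 2.72 against 0.934 RPKM in the controls and 3.53 against 0.558 RPKM in the IFN-γ group.

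Since pan-leukocyte genes varied among the tumors, the members were also expressed per 1000 counts of Ptprc, the gene of the pan-leukocyte surface protein CD45. Ptprc itself was at 163 ± 26.9 CPM in the controls and 198 ± 79.5 CPM in the IFN-γ group (SD, n = 3 in each), with 107 CPM in IFN-γ tumor 3. On this scale Ms4a1 was at 5.21, 12.4 and 8.47 among controls, against 0.921, 3.1 and 1.73 after IFN-γ. Pax5 was at 18, 17.4 and 11.1 against 1.38, 5.68 and 2.31. For these 2 members, but for no other, the IFN-γ tumors all lay below the controls, which 2.24% of the genes tested did on this scale. The means differed 4.54-fold for Ms4a1 and 4.96-fold for Pax5. For Ms4a1 the separation came with the scaling, since its groups overlapped in CPM. IFN-γ tumor 2 had 12 Ms4a1 reads and control tumor 1 had 11, while their Ptprc counts were 3871 and 2111.

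Tnfrsf17 overlapped once scaled to Ptprc, because IFN-γ tumor 3 came to 8.67 and control tumor 2 to 5.91. Cd79a in IFN-γ tumor 3, at 11, was close to control tumor 2 at 12.1. Cd79b was highest in IFN-γ tumor 3, at 45.6, against 20.2 to 30.8 in the controls.

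**Figure D3:**
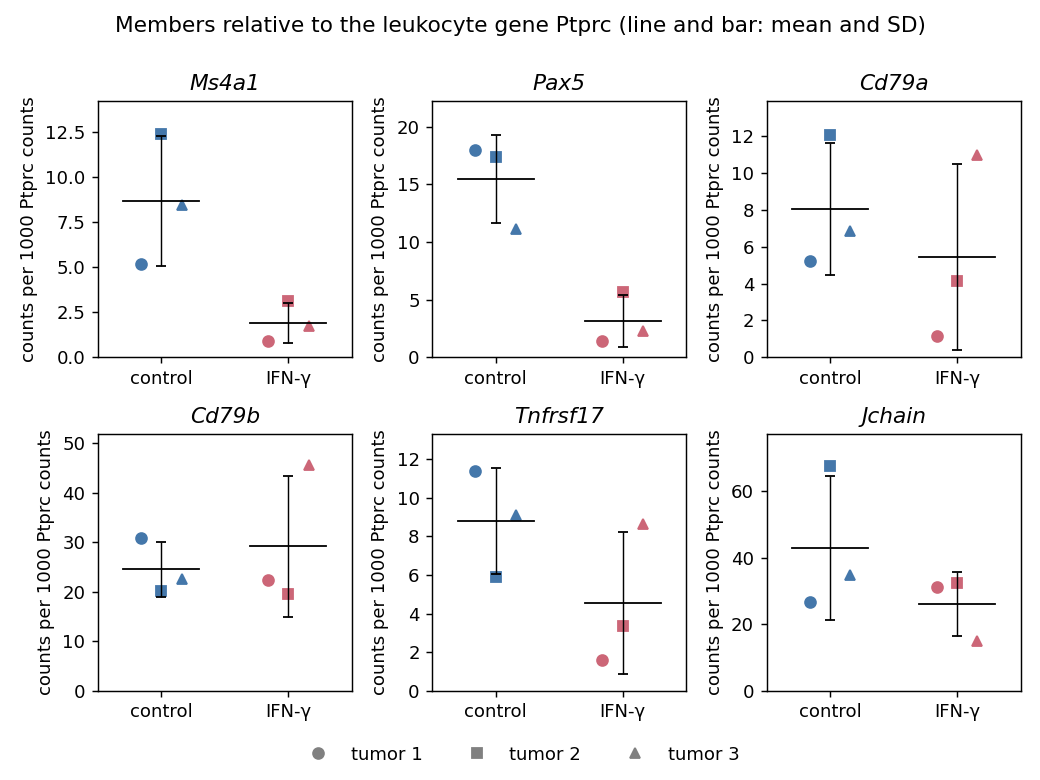
Counts of 6 members per 1000 counts of Ptprc (y axis, linear from 0) in control and IFN-γ tumors. Points are single tumors, lines means and bars SDs (n = 3). Ms4a1 and Pax5 separate the groups, with 3.1 and 5.68 as the highest IFN-γ values against 5.21 and 11.1 as the lowest control values, and the other 4 genes overlap. In CPM the groups of Ms4a1 overlapped.

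Among 20 other genes of B cell identity, 13 had enough reads to be tested. None passed the adjusted threshold, 9 had a log2 fold change above 0 and 4 below 0, and the median was 0.15. The 4 below 0 were Bank1, Cxcr5, Pou2af1 and Ebf1. Bank1, an adaptor of B cell receptor signalling, was at 2.57 ± 0.364 CPM in the controls and 1.40 ± 0.205 CPM in the IFN-γ group (SD, n = 3 in each), with no overlap and a log2 fold change of -0.87 (standard error 0.27, adjusted p = 0.349, edgeR). Cxcr5, the chemokine receptor that brings B cells into follicles, had a log2 fold change of -0.82 (standard error 0.7), and Pou2af1, an octamer coactivator of B cells, one of -0.75 (standard error 0.65).

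Of the genes below the filter, Ly6d, which keratinocytes also express, had 63 counts in IFN-γ tumor 3 and 1 to 8 in each other tumor. Ly6d, Cxcr5, Pou2af1 and Ebf1 were picked after their values were seen.

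Of the 9 genes of this list above 0, Cd72, a lectin-like B cell receptor inhibitor that macrophages also express, was at 48.5, 49.3 and 42.9 CPM among controls, against 96.7, 76 and 51.9 CPM after IFN-γ (log2 fold change 0.68, standard error 0.20, adjusted p = 0.322, edgeR). It passed the threshold without IFN-γ tumor 3 (log2 fold change 0.87, adjusted p = 0.0123, edgeR), with DESeq2 and when low counts were left unfiltered, and its adjusted p over the alternatives ran from 0.0123 to 1. Btk, the kinase downstream of the receptor, and Pou2f2, an octamer factor, had log2 fold changes of 0.31 and 0.44, and of 0.48 and 0.62 without IFN-γ tumor 3, and did not pass in either case.

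Of 14 other plasma cell genes, 13 were tested, none passed, 11 were above 0 and 2 below, and the median was 0.13. Slamf7, a surface receptor shared with NK cells and macrophages, was at 3.18, 3.72 and 4.74 CPM among controls, against 9.97, 12 and 3.58 CPM after IFN-γ. The estimate was 1.13 on the log2 scale with a standard error of 0.41 (edgeR, adjusted p = 0.394), and 1.49 without IFN-γ tumor 3, where it passed (adjusted p = 0.015, edgeR). Tent5c, a poly(A) polymerase of plasma cells, was higher in every IFN-γ tumor, at 4.51 ± 0.874 against 2.65 ± 0.588 CPM (SD, n = 3 in each, log2 fold change 0.76, standard error 0.26, adjusted p = 0.389, edgeR). Tnfrsf13b, the receptor TACI, had a log2 fold change of 0.45 (standard error 0.19) in the opposite direction to its relative Tnfrsf17. Prdm1, Irf4 and Sdc1, the classic plasma cell factors and surface marker, are also expressed by T cells, macrophages or epithelial cells, and had log2 fold changes of 0.04, 0.11 and 0.05. These 3 were picked after their values were seen.

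**Figure D4:**
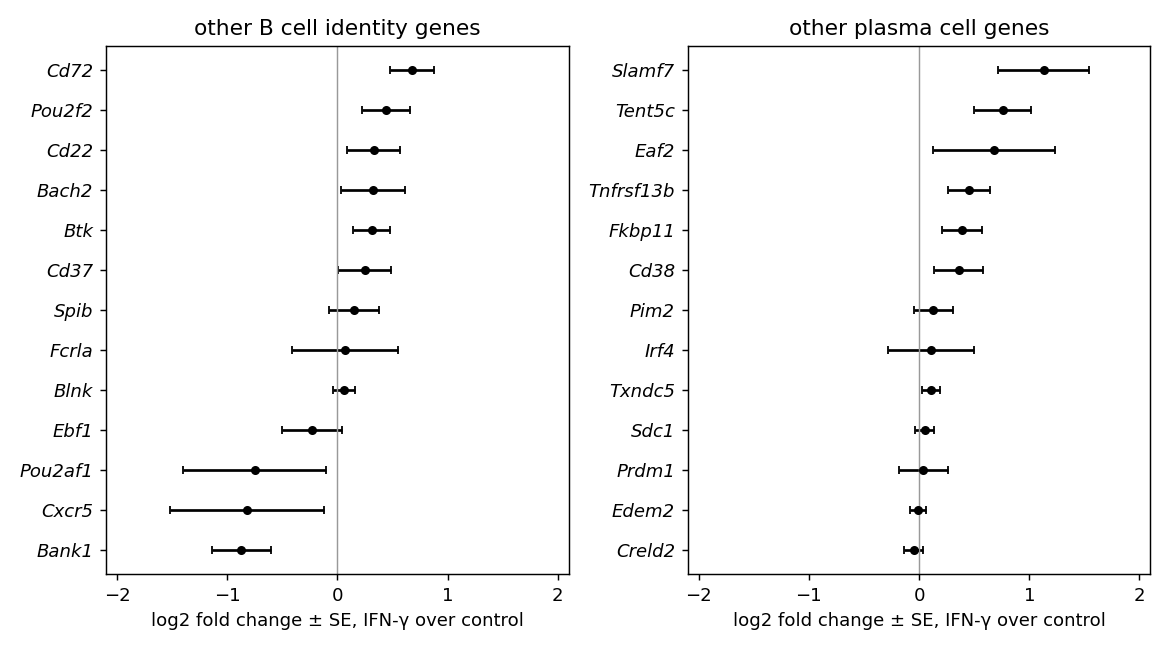
Log2 fold change with its standard error (x axis, IFN-γ over control, edgeR, all 6 tumors) of the 13 other B cell identity genes tested on the left and the 13 other plasma cell genes tested on the right. Bank1 lies lowest on the left at -0.87 and Cd72 highest at 0.68, and Slamf7 lies highest on the right at 1.13.

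Immunoglobulin constant genes, the products of both cell types, were variable. Of 12 such genes, 8 were tested, 0 passed, 2 were above 0 and 6 below, with a median of -0.3, and Ighe was at 0 counts throughout. Ighm, the IgM heavy chain, was at 57.8, 89.5 and 59 CPM among controls, against 109, 115 and 47.6 CPM after IFN-γ. Igkc, the kappa light chain, picked after its values were seen, was at 6.99, 25.1 and 14 CPM against 16.5, 17.7 and 5.8 CPM, so control tumor 2 was the highest and IFN-γ tumor 3 the lowest, as for Jchain. Igha, the IgA heavy chain that JCHAIN also joins, had 354 of its counts in control tumor 2 and 39 to 164 in each other tumor.

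Among 10 signals that attract or sustain B cells, 7 were tested and 0 passed, with 5 above 0, 2 below and a median of 0.25. Icosl, the ligand by which B cells and other antigen-presenting cells engage T cells, had the smallest p of the list. It was at 8.74, 9.63 and 7.19 CPM among controls, against 16.4, 13.4 and 10.4 CPM after IFN-γ, so every IFN-γ tumor was above every control. The estimate was 0.66 on the log2 scale with a standard error of 0.20 (edgeR, adjusted p = 0.349), and 0.80 without IFN-γ tumor 3 (edgeR, adjusted p = 0.0505). Cxcl13, the chemokine that draws B cells into follicles, was at 11, 32 and 21.2 CPM among controls, against 5.97, 13.7 and 2.9 CPM after IFN-γ. The groups overlapped between control tumor 1 and IFN-γ tumor 2, and control tumor 2 was again the highest. For Cxcl13 the estimate was -1.51 on the log2 scale (standard error 0.54, adjusted p = 0.392, edgeR). Among its alternatives it passed only with no filter on low counts, and the adjusted p ran from 0.0414 to 1. Leaving out IFN-γ tumor 3 gave an estimate of -1.14, and leaving out IFN-γ tumor 2 gave -2.27. Tnfsf13b (BAFF), a ligand of Tnfrsf17 and Tnfrsf13b, was at 3.9 ± 0.659 CPM in the controls and 5.59 ± 1.4 CPM in the IFN-γ group (SD, n = 3 in each, log2 fold change 0.52, standard error 0.25). Tnfsf13 (APRIL), the other ligand of Tnfrsf17, was read 33, 39 and 38 times among controls and 31, 25 and 25 times after IFN-γ, with no overlap in CPM (log2 fold change -0.4, standard error 0.25, adjusted p = 0.639, edgeR).

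Genes of lymph nodes and high endothelial venules ranged from 0 counts to the 1251 to 1478 counts of Ltbr. Ccl21a and Ccl19, which each have 2 entries in the table, had at most 2 counts in a tumor, Glycam1 and Madcam1 at most 1 and Chst4 at most 4. Ccr7, the receptor that guides lymphocytes into lymph nodes, had 84 to 167 counts in a tumor, and these 5 and Ccr7 were picked after their values were seen. Lyve1, a marker of lymphatic endothelium and some macrophages, was at 9.3, 3.88 and 19.3 CPM among controls, against 3.83, 7.75 and 4.94 CPM after IFN-γ, with overlap (log2 fold change -0.98, standard error 0.52, adjusted p = 0.571, edgeR). Ltb, a lymphotoxin subunit of lymphocytes, had 162 to 376 counts and a log2 fold change of 0.38 (standard error 0.28). Of the 13 entries, 5 were tested and 0 passed, with a median log2 fold change of 0.07. Summed over the list, the controls ran from 100 to 119 CPM and the IFN-γ tumors from 108 to 119 CPM, most of it from Ltbr, which many cells express.

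Genes that work with Xbp1 had a median difference near 0. Of 21 entries for IRE1 and the unfolded protein response, 20 were tested and 0 passed, with 7 above 0, 13 below and a median log2 fold change of -0.04. Ern1, the gene of the IRE1 sensor that splices the Xbp1 transcript, was at 106, 113 and 86.6 CPM among controls, against 71.5, 69.9 and 71.8 CPM after IFN-γ. Every IFN-γ tumor was below every control, at an estimate of -0.52 on the log2 scale with a standard error of 0.10 (edgeR, adjusted p = 0.158). Ern1 passed in 3 of 14 alternatives, with DESeq2 (adjusted p = 0.00379), with no filter on low counts and without IFN-γ tumor 3 (edgeR, adjusted p = 0.0468), and the adjusted p over the alternatives ran up to 1. Herpud1, a degradation factor of the endoplasmic reticulum, had a log2 fold change of 0.24 (standard error 0.08), and Ddit3, the stress factor CHOP, one of -0.51 (standard error 0.19), and neither passed.

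Marker genes of other immune cells had mostly positive log2 fold changes, none past the threshold in the main edgeR fit of all 6 tumors. Of 12 T cell genes, 12 were tested, 0 passed and 11 were above 0, and their summed level was 124 to 160 CPM in the controls and 87.7 to 227 CPM in the IFN-γ tumors. Of 10 macrophage genes, 0 passed and 8 were above 0, with sums of 3720 to 4420 CPM against 4120 to 6710 CPM. An unadjusted p under 0.05 (edgeR) was reached by 6 of the 10 as higher and by 1 as lower. The share of all genes tested was 4.44% as lower. As higher it was not computed, so the count of 6 cannot be judged against all genes. The groups did not overlap for 3 of the 10 as higher and 1 as lower, against 7.63% and 7.5% of all genes tested. The complement genes C1qa, C1qb and C1qc, typical of tissue macrophages, had log2 fold changes of 0.55, 0.48 and 0.51. Each of these 3 passed in 3 alternatives, namely with DESeq2, when low counts were left unfiltered, and without IFN-γ tumor 3 (edgeR, adjusted p = 0.0162, 0.0123 and 0.0143). Over all genes, those settings called 118, 150 and 381 as higher, against 12 in the main fit. The 6 pan-leukocyte genes were all above 0, with a median log2 fold change of 0.35. In each of these lists the lowest IFN-γ tumor was IFN-γ tumor 3, and none of the T cell or macrophage markers was at 0 in any tumor. The 10 genes of plasmacytoid dendritic cells, which also transcribe Mzb1 and Jchain, had a median of 0.14 with 0 past the threshold, and their sum was 497 to 593 CPM in the controls and 513 to 759 CPM in the IFN-γ tumors. The part of these cells in the values of the members was not tested.

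**Figure D5:**
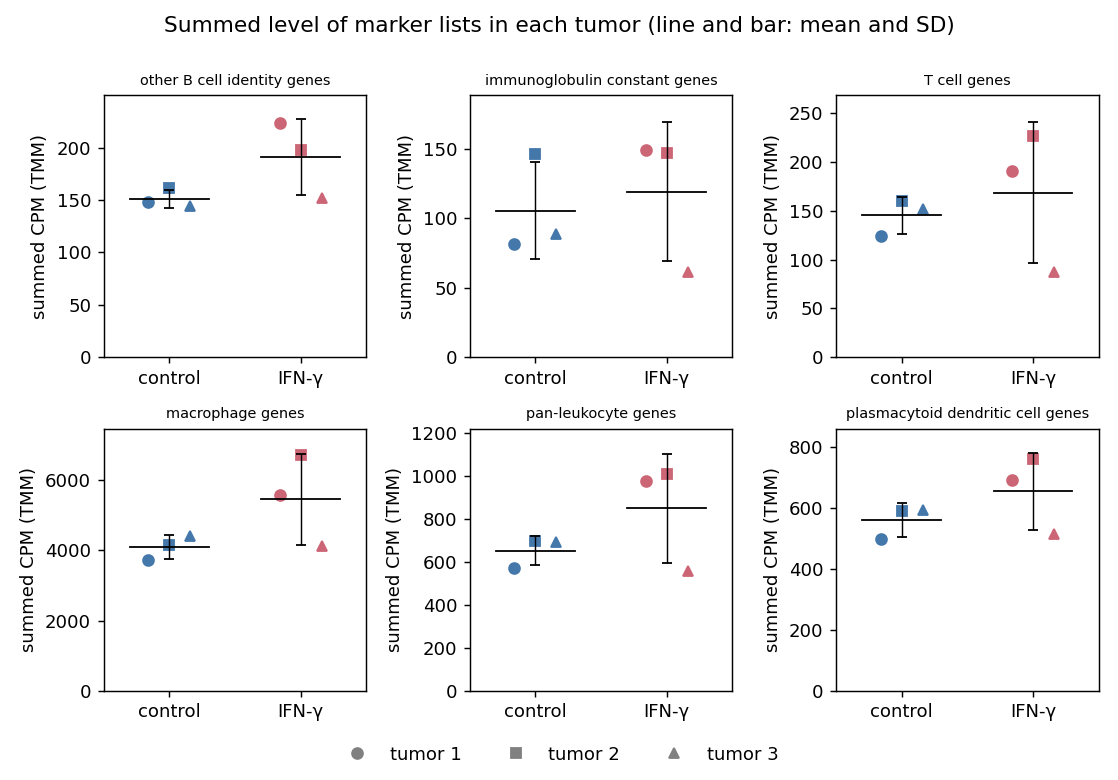
Summed level of 6 marker lists in CPM (TMM-scaled; y axis, linear from 0) in control and IFN-γ tumors. Points are single tumors, lines means and bars SDs (n = 3). IFN-γ tumors 1 and 2 lie above the controls for all 6 lists, narrowly for immunoglobulin constant genes (149 and 147 CPM against at most 146 CPM). IFN-γ tumor 3 lies below every control at 87.7 CPM for T cell, 556 CPM for pan-leukocyte and 61.5 CPM for immunoglobulin constant genes.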

How the data were processed

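RNA-seq counts of 6 subcutaneous CT26.WT tumors were analysed, 3 control and 3 IFN-γ, grouped by the titles and treatments in the labels. The deposited values are raw counts for each gene and tumor, which are whole and neither normalized nor pooled, and the submitters' processing notes name HISAT2 and mm10. The counting program, annotation and strandedness are not given in the sources used here, so reads of overlapping or near-identical genes are uncertain. Nothing in the labels says that each tumor came from its own mouse, and p-values measure only the spread between these samples.

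The whole table was fitted with edgeR 4.0.16 (R 4.3.3), using its default filter, TMM factors and the quasi-likelihood test with Benjamini-Hochberg adjustment over 15114 genes at a threshold of 0.05. The standard error is the size of the log2 fold change divided by the square root of F. CPM used TMM-scaled totals. For Cr2 and Mzb1, mean CPM was compared by a two-sided exact permutation test (SciPy 1.17.1). Positions and exons are from GENCODE M21 (GRCm38, the assembly of mm10), which held 99.5% of the identifiers, and promoters from RefSeq. DESeq2 1.42.0, limma 3.58.1 (voom), other scalings and filters, a fold threshold, a replicate block and fits leaving out each tumor were alternatives. The fits were tested on simulated data. No 2 libraries appeared to be duplicates, with a chi-square per gene of at least 6.17 for every pair.

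Members, gene lists and tests were chosen with earlier results of these data known. Named genes were all members, any gene of the other lists past the threshold, otherwise up to 4 per list with the smallest p, list genes at 0 counts throughout, and the 5 genes most like Cd79a and the 5 most like Xbp1 by Pearson's correlation of log2(CPM + 0.5). Genes outside this rule are marked in the text, and Ptprc was used as a scale. Results that need items withheld for evaluation are not reported here.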

Additional observations from a re-analysis of the deposited data

How the results depend on the processing

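A filter of at least 10 counts in every tumor kept only 3 members (Cd79b, Jchain and Xbp1). Under none of the 14 alternatives did a member pass the adjusted threshold in either direction. Over all genes, 12 were called higher and 5 lower with all 6 tumors. DESeq2 gave 118 and 73, leaving low counts unfiltered 150 and 70, scaling by library size 7 and 4, limma-voom 10 and 3, and a test against a log2 fold change of 1 gave 3 and 1. They ran from 4 to 381 higher and from 2 to 112 lower when each tumor was left out, with the highest numbers without IFN-γ tumor 3. Both groups carry replicate numbers 1 to 3, but the deviations of like-numbered tumors correlated at -0.24, -0.0047 and -0.22, and 0 of 6 correlated best with its own number. With the replicate number as a block (replicate block), 0 members passed, and 5 and 2 genes in all.

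For the 7 members tested, 92 of 94 comparisons kept their sign and their call. The other 2 were Jchain, at 0.24 without control tumor 2 and 0.072 without IFN-γ tumor 3, in a range from -0.69 to 0.24. Of 558 comparisons for 40 named genes of other lists, 532 kept both, 23 passed only under the alternative, and 3 changed direction. These were Igha (-1.03 to 0.6 over the fits that left out 1 tumor), Ighg1 (-1.71 to 1.16) and Ltbr (-0.023 to 0.13). The cause was not tested. With 3 to 217 counts per library for Ms4a1, Cd79a, Pax5, Jchain and Tnfrsf17, depth limits how small a difference could be seen.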

Other observations

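Over the 6 tumors, the genes whose log2 CPM was most like that of Cd79a by Pearson's correlation were D430013B06Rik (0.9884), Trmt10a (0.9812), Zscan12 (0.9745), Bbof1 (0.974) and Kctd20 (0.9736). For Xbp1 they were Map2k4 (0.9889), Smim15 (0.9882), Manf (0.9857), Sumo2 (0.9841) and Rad51c (0.9836). Manf is also in the list for the unfolded protein response. With 6 tumors that share their groups, 35 genes reached 0.9 for Cd79a and 89 for Xbp1, so these are descriptions of the order of the tumors, with no test.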
